A study of Mus musculus with 18 samples.

Results

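The comparison of A50 with A10 asks what changed in cultured testes when the concentration of alginate oligosaccharides (AOS) was raised from 10 to 50 μg/mL with no busulfan in the animal. It took 6 of the 18 RNA-seq samples of the series, the 3 A10 samples and the 3 A50 samples. All were testes of ICR mice collected at the same time as those of the busulfan groups, whose mice were 3 weeks old at the injection and gave their testes 2 weeks later. They were cultured for 48 h in DMEM/F12 medium with 10% fetal bovine serum, and A0 was cultured in the same way with 0 μg/mL AOS. B0, BA10 and BA50 were the same 3 cultures of testes from mice that had received busulfan once, at 40 μg per g body weight. The methods give 6 testes per treatment and 3 repeats, and do not say how many testes went into 1 library. ICR mice are outbred, so the testes came from mice that are not genetically identical. The series' design text gives the AOS amounts per kg of body weight. The labels and the methods give them per mL of medium, and that unit is used here. Of 22657 genes in the table, 14971 had at least 1 FPKM (fragments scaled by transcript length and by all mapped fragments of the sample) in at least 3 of the 6 samples and were tested.

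AOS are short chains of guluronate and mannuronate obtained by degrading alginate, a polysaccharide of brown seaweed, and they are studied for anti-inflammatory and antioxidant effects. A cut and cultured testis holds germ cells at successive stages, from spermatogonia through meiotic spermatocytes to haploid spermatids, together with Sertoli, Leydig, peritubular myoid and endothelial cells and macrophages. Tissue that has been removed and placed in serum is known to switch on immediate early genes, which encode short-lived transcription factors and feedback regulators. Cytokine, prostaglandin and hypoxia genes follow, through factors such as AP-1, CREB, NF-κB and HIF-1.

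The 6 libraries carried testis transcripts of each kind. Prm2, which encodes a protamine that packs sperm DNA, lay between 711 and 1465 FPKM. Sycp3, part of the synaptonemal complex of spermatocytes, lay between 116 and 137 FPKM. Insl3, a Leydig cell hormone, lay between 291 and 552 FPKM, and Clu, a Sertoli cell product, between 882 and 2810 FPKM. Per sample, FPKM added up to 463970 at the lowest and 511274 at the highest, and the number of reads behind them is unknown. In whole tissue, fewer cells of a type and less RNA per cell cannot be told apart.

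A10 replicate 3 stood apart from the other samples. On the log2(FPKM + 1) scale its Pearson's r across genes was 0.930 with A10 replicate 1 and 0.943 with A10 replicate 2, whereas these correlated at 0.984 with each other and the 3 A50 samples at 0.983 to 0.987. The summed level of the 28 Sertoli cell markers in the table was 2216 to 4936 FPKM in A10 and 4236 to 5605 FPKM in A50, and the summed level of the 26 round spermatid markers was 970 to 1872 FPKM in A10 and 1284 to 1367 FPKM in A50. A10 replicate 3 gave the lowest Sertoli and the highest round spermatid value. Most list counts of genes whose groups do not overlap are therefore also given without it, and fewer samples make such counts larger over all genes as well.

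No gene was called between A50 and A10 by limma at a Benjamini-Hochberg adjusted p under 0.05, which is 0% of the 14971 genes tested, and the smallest adjusted p was 0.999. At an unadjusted p under 0.05 there were 257 genes higher in A50 (1.72%) and 145 lower (0.969%). A fit of only the 6 samples called 1 gene, the unplaced gene model BGI_novel_G000295, which was listed at 0 in the 3 A10 samples and at 3.96, 3.59 and 3.85 FPKM in A50, with a limma adjusted p of 0.00783. Its values in A0 were 0, 18.15 and 7.61 FPKM. A fit with sample weights estimated gene by gene called 2 genes, both higher. With 1 weight per sample it called 2032 higher and 1865 lower, with the weights running from 0.105 for A10 replicate 3 to 10.6 for A10 replicate 2. The median standard error of a gene's log2 difference was 0.164, and 60.5% of differences were above 0 and 39.5% below, with a median of 0.04. All adjusted p-values of single genes named below were 0.999 in limma, so each difference is given as a value and none as a change. An exact two-sided permutation test of 1 gene in 3 against 3 samples cannot go below 0.1.

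The groups did not overlap in 1387 genes (9.26%). All A50 values lay above all A10 values in 810 genes (5.41%) and below them in 577 (3.85%). This split depended on the scaling, with 636 above and 745 below after quantile normalization, 532 and 830 after centring each sample on its median, and 1138 and 417 after rescaling to a common sum. Without A10 replicate 3, all A50 values lay above both A10 values in 3242 genes (21.7%) and below them in 2882 (19.3%). A10 replicate 3 was the A10 sample farthest from A50 in 410 of the 810 and in 283 of the 577 genes. The mean of one group was at least 2 times that of the other in 63 genes higher in A50 (0.421%) and 135 lower (0.902%).

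Among genes with a symbol, the lowest log2 difference in A50 was that of Ier3, an immediate early gene whose product acts in cell survival. It lies in the region of the major histocompatibility complex on chromosome 17, and Abcf1, Ddr1, Gnl1 and Flot1, of the same stretch, were also among the 10 lowest. The unplaced gene model BGI_novel_G000760 was lower still, at -4.53 ± 1.07 (SE). The values of Ier3 were 9.89, 30.99 and 231.49 FPKM in A10 and 2.59, 1.48 and 0.85 FPKM in A50. Every A50 sample was lower than every A10 sample, and the 3 A10 samples differed among themselves more widely than the lowest of them differed from A50. The group means were 90.8 ± 122 and 1.64 ± 0.881 FPKM (SD, n = 3 each), and the log2 difference was -4.09 ± 1.06 (SE).

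Ier3 lies at 35821713 to 35822911 of chromosome 17 in GRCm38. Within 500 kb of its start, 31 genes were tested. In 13 of them all A50 values were below all A10 values and in 1 they were above, beside 3.85% and 5.41% of all genes. In 17 the groups overlapped. From Ddr1 to Gnl1, between positions 35681567 and 35989462, 15 genes were tested. Of these, 9 had all A50 values below all A10 values and 7 had a log2 difference of -1 or lower. The window and this stretch were drawn around genes picked for their low A50 values, and those genes are among the counted ones. The counts are therefore a description only. Over all genes, 27 had no overlap together with a log2 difference of -1 or lower. Of these 27, 8 lay in the 500 kb window and 11 on chromosome 17, which held 691 of the 14971 genes tested.

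Abcf1, which encodes an ATP-binding protein of translation, had 3.02, 12.06 and 23.97 FPKM in A10 and 1.59, 1.25 and 1.43 FPKM in A50. Gnl1, a GTP-binding protein gene, had 6.86, 16.65 and 36.47 FPKM in A10 and 3.63, 4.94 and 3.52 FPKM in A50. Flot1, a membrane raft protein gene, had 4.85, 8.28 and 9.76 FPKM in A10 and 1.52, 2.95 and 0.73 FPKM in A50. In each of these 3 genes A10 replicate 1 was the lowest of its group and replicate 3 the highest, as in Ier3. Ddr1, a collagen receptor gene, had 1.24, 7.69 and 6.77 FPKM in A10 and 0.27, 0.20 and 0.23 FPKM in A50, and its highest A10 sample was replicate 2. The log2 differences were -2.18 ± 0.85 for Abcf1, -1.80 ± 0.59 for Gnl1, -1.69 ± 0.51 for Flot1 and -2.11 ± 0.84 for Ddr1 (SE, n = 3 per group). Mdc1, an adaptor of the DNA damage response, differed by -1.45 ± 0.44 and Ppp1r10, a subunit of protein phosphatase 1, by -1.16 ± 0.49. Mdc1 and Ppp1r10, like Tubb5 and Dhx16, were named after their values were seen.

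Other genes of the region differed less or lay the other way. Dhx16, a helicase gene of splicing 58.1 kb from the start of Ier3, had 18.22, 17.90 and 22.19 FPKM in A10 and 21.52, 23.03 and 21.57 FPKM in A50. Tubb5, a tubulin gene 12.2 kb from it, had 63.78, 90.92 and 109.49 FPKM in A10 and 62.00, 50.87 and 59.55 FPKM in A50, a log2 difference of -0.58 ± 0.28 without overlap. H2-T10, a class I sequence 294 kb away that is annotated as a transcribed pseudogene, lay the other way. It had 14.85, 13.51 and 1.78 FPKM in A10 and 14.94, 18.14 and 17.16 FPKM in A50. Class I genes of this region are near-identical copies that can share reads, so their values are uncertain.

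**Figure D1:**
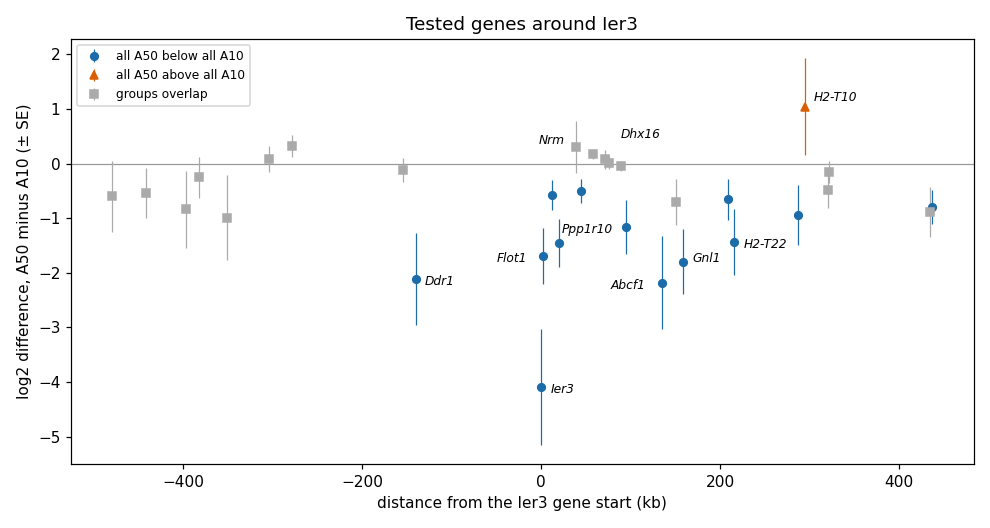
Log2 difference of A50 minus A10 (± SE) of the 31 tested genes against the distance of their start from that of Ier3 in kb. Ier3 is lowest at -4.09, and genes whose groups overlap, such as Dhx16, lie among genes of the stretch that are lower in A50.

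The same genes also differed widely between samples of 1 group elsewhere in the series. Ier3 had 57.64, 119.56 and 29.19 FPKM in A0 and 168.59, 238.00 and 17.19 FPKM in B0. Abcf1 had 17.52, 27.53 and 1.87 FPKM in B0 and 2.58, 15.33 and 16.34 FPKM in BA10. Ddr1 had 21.82, 16.75 and 1.33 FPKM in B0 and 2.27, 12.88 and 10.97 FPKM in BA10. B0 replicate 3 and BA10 replicate 1 were thus low in Ier3, Abcf1, Gnl1, Flot1 and Ddr1, where Ier3 had 18.66 FPKM in BA10 replicate 1. The unplaced gene model BGI_novel_G000760 had 12.77, 62.51 and 335.49 FPKM in A10, 1.94, 2.28 and 1.49 FPKM in A50, and 61.39, 130.09 and 8.82 FPKM in B0. ICR mice are outbred and no genotype was measured here, and the part of differences between mice in these values was not tested.

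**Figure D2:**
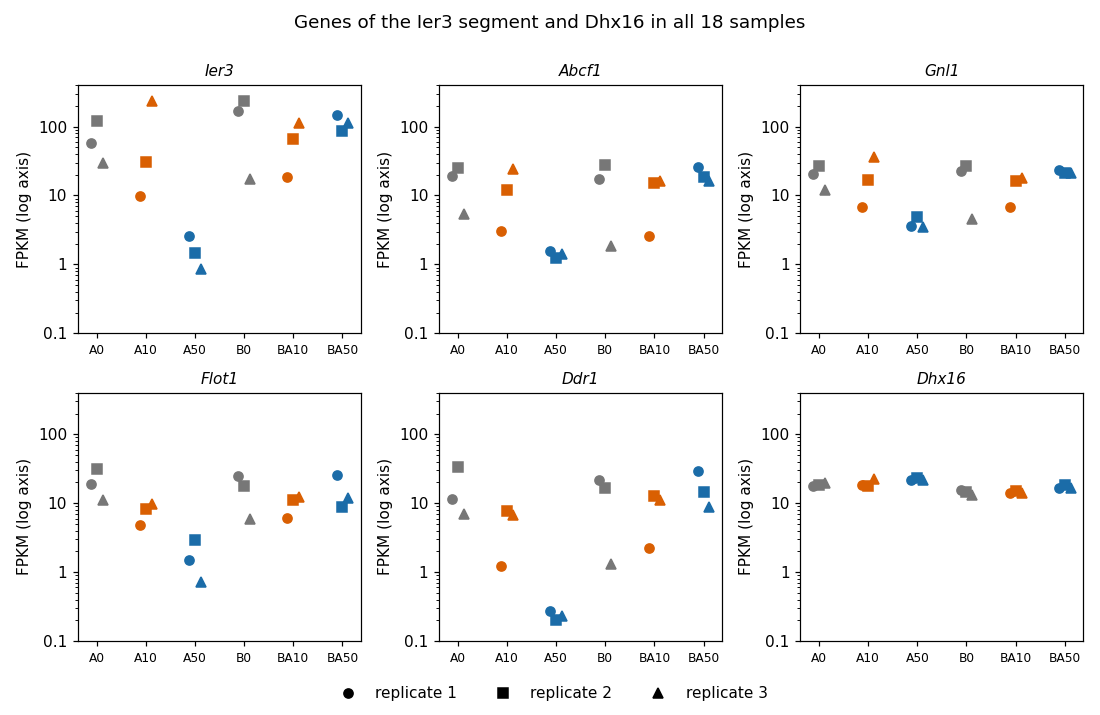
FPKM (log axis, the same in each panel) of 5 genes of the Ier3 stretch and of Dhx16 in the 18 samples, 1 symbol per replicate number. The 3 A50 samples are lowest in Ier3, Abcf1, Flot1 and Ddr1, B0 replicate 3 lies within their range in Gnl1, and Dhx16 stays between 13.1 and 23.0 FPKM.

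Other genes at the lower end lay outside the 500 kb around Ier3. Hspa1b and Znrd1as are also on chromosome 17, starting at 34956429 and 36958555, while Sprr2d, Aqp2 and Haspin are on chromosomes 3, 15 and 11. Sprr2d, a gene of the cornified envelope, had 3.04, 6.04 and 29.71 FPKM in A10 and 0.98, 1.46 and 2.01 FPKM in A50. Aqp2, a water channel gene, had 5.39, 6.62 and 42.63 FPKM in A10 and 3.73, 3.31 and 2.65 FPKM in A50. Hspa1b, an inducible heat shock protein gene, had 4.53, 6.64 and 39.26 FPKM in A10 and 2.86, 1.40 and 3.91 FPKM in A50. In these 3 genes A10 replicate 3 was far above the other A10 samples, and Hspa1b can share reads with its near-identical copy Hspa1a. Hspa1b was also highest of its group in A0 replicate 2, B0 replicate 1 and BA50 replicate 1, at 13.74, 32.59 and 14.75 FPKM. Haspin, a histone H3 kinase gene of dividing and germ cells, had 1.93, 26.16 and 1.90 FPKM in A10 and 0.37, 0.51 and 1.57 FPKM in A50, so that A10 replicate 2 set its mean. Znrd1as, an antisense RNA gene on chromosome 17, had 7.46, 24.16 and 82.87 FPKM in A10 and 5.91, 6.35 and 7.34 FPKM in A50, and no source used here states whether strand was kept.

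Cytokine, chemokine and prostaglandin genes were mostly lower in A50 than in A10. Of 36 tested genes of cytokines, chemokines and mediators, 30 had a log2 difference below 0 and 6 above 0, with a median of -0.33 beside 0.04 over all genes tested. All A50 values were below all A10 values in 8 of the 36 (22.2%, beside 3.85% of all genes) and above them in 0. The 8 were Cxcl2, Ptgs2, Csf3, Lif, Csf1, Ccl7, Mif and Ptges. Without A10 replicate 3 the count was 9 of 36 (25%, beside 19.3% of all genes) and the median was -0.30. By limma 0 of the 36 were called, while 9 had an unadjusted p under 0.05, all lower in A50.

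Cxcl2, a chemokine that attracts neutrophils, had 12.93, 21.55 and 29.90 FPKM in A10 and 7.93, 5.16 and 8.73 FPKM in A50. The groups did not overlap, and the A0 samples, with 14.27, 15.38 and 11.95 FPKM, lay above A50 and within or below the range of A10. The means were 21.5 ± 8.49 FPKM in A10 and 7.27 ± 1.87 FPKM in A50 (SD, n = 3 each), a ratio of 2.95 and a log2 difference of -1.39 ± 0.36 (SE). Ptgs2, which encodes the inducible cyclooxygenase of prostaglandin synthesis, had 38.59, 77.22 and 117.65 FPKM in A10 and 38.58, 24.15 and 20.72 FPKM in A50. Its groups were apart by 0.01 FPKM only, and its A0 samples had 28.11, 30.78 and 33.56 FPKM. Csf3, the granulocyte colony-stimulating factor gene, had 6.68, 8.19 and 8.62 FPKM in A10 and 3.53, 2.38 and 4.25 FPKM in A50, with the smallest spread of these genes within A10. Il6, an acute inflammatory cytokine gene, had 9.13, 26.58 and 19.35 FPKM in A10 and 10.30, 6.90 and 6.33 FPKM in A50, and its groups overlapped in 1 sample of each. Lif, a cytokine gene of the same receptor family, had 19.46, 24.91 and 42.32 FPKM in A10 and 18.59, 13.78 and 18.09 FPKM in A50. The log2 differences were -1.36 ± 0.42 for Ptgs2, -1.03 ± 0.34 for Csf3, -1.04 ± 0.29 for Il6 and -0.68 ± 0.30 for Lif. Spp1, the most abundant of the list and an osteopontin gene, differed by -0.15 ± 0.32. Il6, Csf3 and Lif were named after their values were seen.

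The promoters of Cxcl2, Il6 and Ptgs2 are shown because these genes are textbook targets of NF-κB, AP-1 and CREB and carried the largest differences of the list. Each runs 5′ to 3′ on the plus strand from 250 bases before to 50 bases after the gene start in RefSeq's GRCm38.p6. They are chr5:90903649-90903948 for Cxcl2, chr5:30012864-30013163 for Il6 and chr1:150099781-150100080 for Ptgs2. Capitals mark matches on either strand to the 10-base NF-κB consensus, to TGANTCA (AP-1) and to TGACG (the core of a cyclic AMP response element).
Cxcl2: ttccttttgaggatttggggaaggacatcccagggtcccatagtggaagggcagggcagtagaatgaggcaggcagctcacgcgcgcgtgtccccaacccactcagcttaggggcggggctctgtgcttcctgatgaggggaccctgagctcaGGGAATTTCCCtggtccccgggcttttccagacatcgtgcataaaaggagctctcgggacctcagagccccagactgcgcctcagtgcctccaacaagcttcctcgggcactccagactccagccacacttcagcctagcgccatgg
Il6: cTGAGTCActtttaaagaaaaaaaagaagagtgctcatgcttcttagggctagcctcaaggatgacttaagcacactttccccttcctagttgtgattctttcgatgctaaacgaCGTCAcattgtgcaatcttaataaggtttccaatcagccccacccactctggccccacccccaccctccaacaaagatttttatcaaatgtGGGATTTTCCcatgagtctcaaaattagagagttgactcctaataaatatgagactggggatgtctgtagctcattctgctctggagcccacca
Ptgs2: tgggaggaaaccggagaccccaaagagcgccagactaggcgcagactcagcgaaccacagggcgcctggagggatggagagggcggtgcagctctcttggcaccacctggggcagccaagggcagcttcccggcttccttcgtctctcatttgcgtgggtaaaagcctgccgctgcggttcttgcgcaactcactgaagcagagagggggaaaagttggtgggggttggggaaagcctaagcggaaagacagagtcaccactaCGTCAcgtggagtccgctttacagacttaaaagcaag

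The Cxcl2 promoter held 2 overlapping NF-κB matches, 1 on each strand, and neither of the other motifs. The Il6 promoter held 1 match to each of the 3 motifs, and the Ptgs2 promoter held 1 match to the response element core. The NF-κB consensus was present in 8.46% of 32851 RefSeq promoters of this length, the AP-1 letters in 7.81% and the response element core in 20.8%. A match is a description of the letters in this window.

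Immediate early genes mostly had lower values in A50. Of 25 tested, 23 were below 0 and 2 above, with a median log2 difference of -0.34. In 6 genes (24%, beside 3.85% of all genes) all A50 values were below all A10 values, namely Ier3, Egr1, Atf3, Dusp1, Jun and Myc, and in 0 above. The count was 10 of 25 (40.0%, beside 19.3% of all genes) when A10 replicate 3 was left out, and the median was then -0.20. Egr1, a zinc finger transcription factor gene, had 47.15, 41.74 and 66.97 FPKM in A10 and 36.64, 25.38 and 26.66 FPKM in A50. Atf3, a stress-induced partner of AP-1 proteins, had 11.23, 12.41 and 19.05 FPKM in A10 and 7.81, 6.79 and 8.63 FPKM in A50. The A0 values were 48.85, 54.15 and 43.85 FPKM for Egr1 and 10.32, 12.57 and 10.77 FPKM for Atf3, so in both genes A50 lay below A0 as well as below A10. Jun, the AP-1 subunit gene, differed by -0.45 ± 0.19 and Dusp1, a phosphatase gene that ends MAP kinase signalling, by -0.51 ± 0.19. Phlda1, a gene induced by the same signals and on no list, had 9.81, 16.72 and 25.96 FPKM in A10 and 7.36, 8.47 and 8.26 FPKM in A50. Atf3, Jun, Dusp1 and Phlda1 were named after their values were seen. Ccn1, the most abundant of the list, differed by -0.55 ± 0.33 and its groups overlapped.

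**Figure D3:**
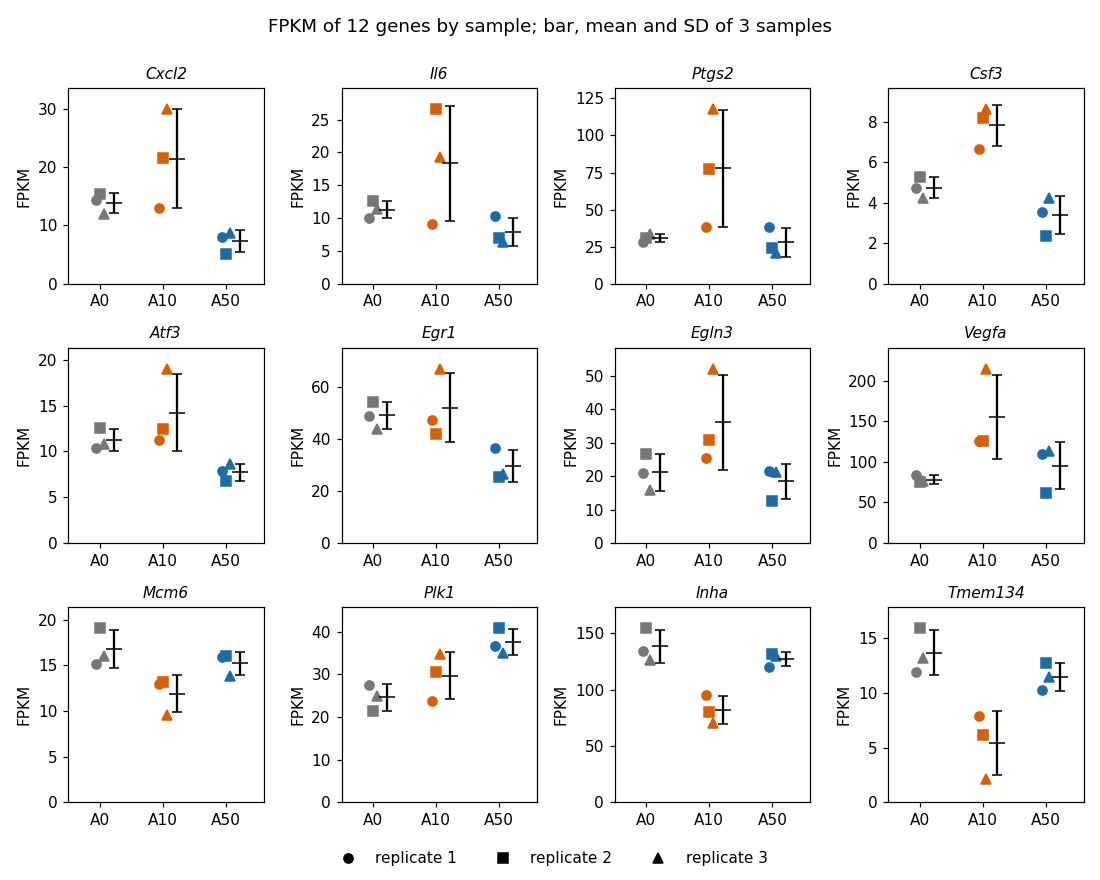
FPKM of 12 genes in the A0, A10 and A50 samples, with 1 symbol per replicate number and the mean and SD (n = 3) beside them. Cxcl2, Csf3, Atf3, Egr1, Egln3 and Vegfa are lower in every A50 than in every A10 sample, Ptgs2 is so by 0.01 FPKM, Il6 overlaps, and Mcm6, Plk1, Inha and Tmem134 are higher in every A50 sample.

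The list of receptors and signalling proteins upstream of these genes had a median nearer to 0. Of 37 tested genes of the Toll-like receptor and NF-κB pathway, 14 were above 0 and 23 below, with a median of -0.03. All A50 values were below all A10 values in 4 of them (10.8%, beside 3.85% of all genes), which were Lbp, Nfkbiz, Tnfaip3 and Traf6, and above in 0. Leaving out A10 replicate 3 gave 17 of 37 (45.9%, beside 19.3% of all genes) and a median of -0.14, and the medians without A10 replicate 1, A10 replicate 2 and A50 replicate 1 were above 0, at 0.05, 0.04 and 0.0042. Tlr4, the receptor of lipopolysaccharide, had 3.28, 3.85 and 1.49 FPKM in A10 and 3.11, 2.39 and 1.94 FPKM in A50, with full overlap. Lbp, which carries lipopolysaccharide to that receptor, had 95.88, 37.37 and 56.72 FPKM in A10 and 30.71, 19.72 and 37.05 FPKM in A50. Nfkbiz and Nfkbia, both induced regulators of NF-κB, differed by -0.55 ± 0.25 and -0.38 ± 0.24. Nos2, the inducible nitric oxide synthase gene, had 1.08, 1.09 and 2.76 FPKM in A10 and 1.44, 0.68 and 0.68 FPKM in A50. Of 24 interferon response genes, 13 were above 0 and 11 below, with a median of 0.01 and 0 without overlap. Leaving out A10 replicate 3 gave a median of -0.14 and 8 of 24 (33.3%, beside 19.3% of all genes) all below. Without A50 replicate 3 the median was -0.02. Their member Cxcl10 had 4.45, 1.20 and 5.58 FPKM in A10 and 1.82, 1.89 and 2.23 FPKM in A50.

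The macrophage marker list had a median above 0, unlike the cytokine genes. Of 20 tested, 14 were above 0 and 6 below, the median was 0.19, and 0 had groups that did not overlap. The summed level of the 22 markers in the table was 553 to 945 FPKM in A10 and 761 to 817 FPKM in A50, and none was listed at 0 in all 6 samples. Marco, a scavenger receptor gene, had 15.96, 12.34 and 3.49 FPKM in A10 and 13.22, 37.18 and 40.87 FPKM in A50. C1qc, a complement gene, had 56.77, 21.02 and 13.12 FPKM in A10 and 50.71, 43.60 and 36.13 FPKM in A50, and Lyz2, a lysozyme gene, 411.77, 215.35 and 158.04 FPKM in A10 and 307.21, 285.50 and 320.42 FPKM in A50. A10 replicate 3 was the lowest A10 sample in all 3 genes.

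Hypoxia and glycolysis genes had lower values in A50, with the highest values in A10 replicate 3. Of 30 tested, 28 were below 0 and 2 above, with a median log2 difference of -0.32, and 8 (26.7%, beside 3.85% of all genes) had all A50 values below all A10 values. The 8 were Egln3, Vegfa, Bnip3, Pgk1, Pgam1, Egln1, Bnip3l and Aldoa. Without A10 replicate 3 the count was 10 of 30 (33.3%, beside 19.3% of all genes), and the median was -0.16. Egln3, a prolyl hydroxylase gene induced by HIF-1, had 25.40, 30.72 and 52.15 FPKM in A10 and 21.62, 12.45 and 21.07 FPKM in A50. Vegfa, the angiogenic factor gene, named after its values were seen, had 125.33, 125.74 and 215.20 FPKM in A10 and 110.23, 62.01 and 113.50 FPKM in A50. Its A0 samples were at 84.02, 74.78 and 75.97 FPKM, below all A10 samples. Gapdh, a glycolytic enzyme gene, had 1512.74, 1507.17 and 3029.20 FPKM in A10 and 1519.42, 1165.68 and 1700.16 FPKM in A50, and its groups overlapped. Eno1, another glycolytic gene with many copies in the genome, had 13.10, 10.53 and 469.96 FPKM in A10 and 11.79, 10.90 and 11.05 FPKM in A50, so that 1 sample set its difference of -1.79 ± 1.57. Single high samples of Eno1 were seen in other groups too. They were A0 replicate 2 with 109.48 FPKM, B0 replicate 1 with 486.49 FPKM and BA50 replicate 1 with 456.08 FPKM.

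Stress genes of the endoplasmic reticulum and the cytosol gave smaller differences. Of 26 genes of the endoplasmic reticulum stress and amino acid response, 22 were below 0 and 4 above, with a median of -0.12 and 3 (11.5%, beside 3.85% of all genes) whose A50 values were all below A10, Atf4, Asns and Pdia4. The count was 8 of 26 (30.8%, beside 19.3% of all genes) when A10 replicate 3 was left out. Hspa5, the main chaperone of that compartment, had 475.14, 501.41 and 1154.20 FPKM in A10 and 501.00, 440.39 and 498.51 FPKM in A50. Ero1a, an oxidase of protein folding, had 120.06, 114.16 and 618.95 FPKM in A10 and 142.98, 71.88 and 134.99 FPKM in A50, and Ddit4, an inhibitor of mTOR signalling, differed by -0.62 ± 0.37. In Hspa5 and Ero1a the other A10 samples lay within the range of A50 or close to it. Of 21 heat shock genes, 9 were above 0 and 12 below, and 4 (19.0%, beside 3.85% of all genes) had all A50 values below A10, Hspa1b, Cryab, Hsph1 and Hspa8. The median of that list was -0.02. Leaving out A10 replicate 3 gave -0.13 and 8 of 21 (38.1%, beside 19.3% of all genes) all below. Cryab, a small heat shock protein gene, had 257.99, 341.87 and 500.34 FPKM in A10 and 247.91, 140.80 and 224.62 FPKM in A50, while Hsp90aa1, the most abundant of the list, differed by 0.08 ± 0.11.

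Antioxidant and apoptosis genes had medians whose sign depended on single libraries. Of 33 NRF2 targets and antioxidant enzymes, 11 were above 0 and 22 below, the median was -0.11, and 2 (6.06%, beside 3.85% of all genes) had all A50 values below A10. The median was -0.22 without A10 replicate 3, with 7 of 33 (21.2%, beside 19.3% of all genes) all below, and 0.02 without A10 replicate 2. Nqo1, a quinone reductase gene, had 15.44, 31.52 and 17.20 FPKM in A10 and 10.29, 19.26 and 15.12 FPKM in A50. Fth1, the ferritin heavy chain gene and the most abundant of the list, differed by -0.19 ± 0.18. Pgd, an enzyme gene of the pentose phosphate pathway, had 4.39, 2.03 and 51.03 FPKM in A10 and 3.40, 1.57 and 1.41 FPKM in A50, with A10 replicate 3 alone high. Of 31 p53 targets and apoptosis genes, 14 were above 0 and 17 below, with a median of -0.01. Of these, 3 (9.68%, beside 3.85% of all genes) were all below and 1 (3.23%, beside 5.41%) all above. The median was -0.11 without A10 replicate 3, with 8 of 31 (25.8%, beside 19.3% of all genes) all below and 3 (9.68%, beside 21.7%) all above. It was above 0 without A10 replicate 1, A10 replicate 2 or A50 replicate 2, at 0.03, 0.03 and 0.02. Mcl1, an anti-apoptotic gene, differed by -0.30 ± 0.14 without overlap, Bid, a pro-apoptotic gene, by 0.66 ± 0.48 without overlap, and Cdkn1a, a cell cycle inhibitor gene, by -0.54 ± 0.94 with overlap.

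**Figure D4:**
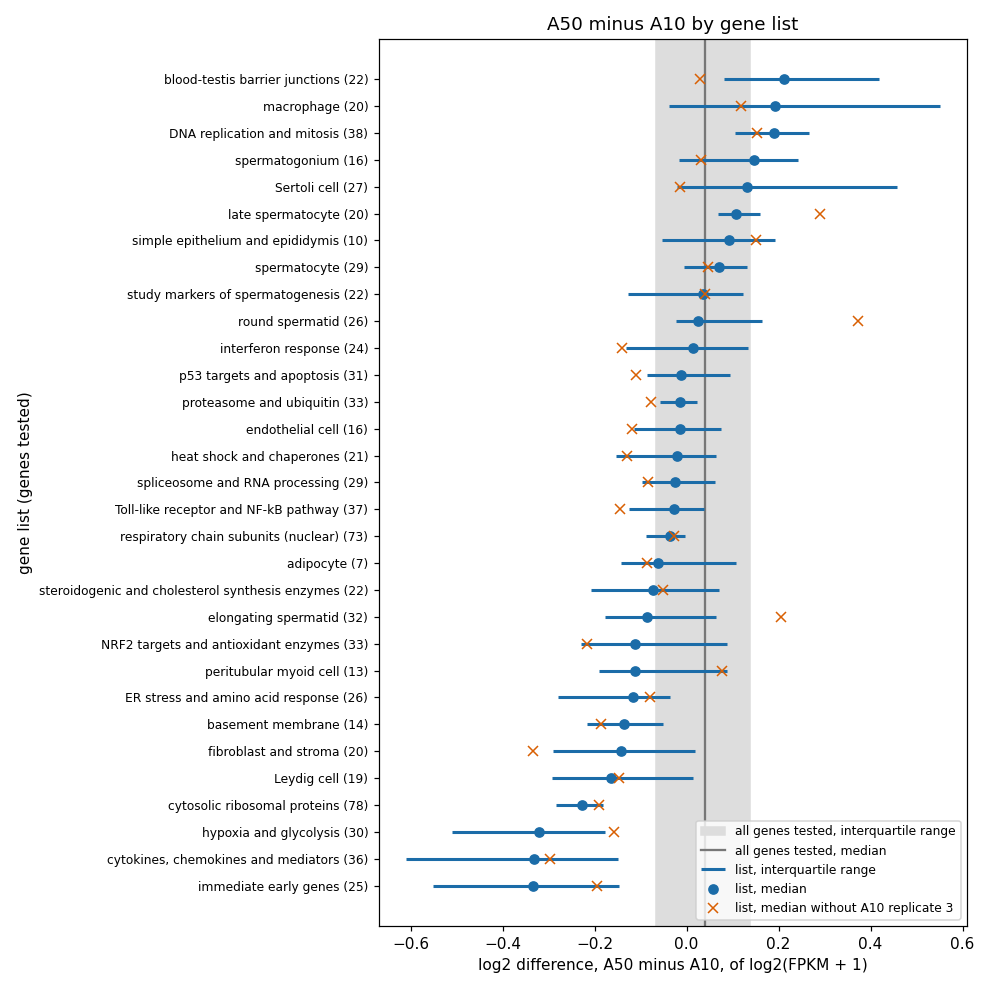
Median log2 difference of A50 minus A10 of each gene list with at least 7 genes tested, with its interquartile range, beside all genes tested (grey). Immediate early genes, cytokines and hypoxia genes lie lowest, at -0.34, -0.33 and -0.32, and crosses give the medians without A10 replicate 3.

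Ribosomal protein genes had slightly lower values in A50, by similar amounts. Of 78 tested, 77 had a log2 difference below 0 and 1 above, with a median of -0.23 and an interquartile range of -0.28 to -0.18. In 47 (60.3%, beside 3.85% of all genes) all A50 values were below all A10 values, and in 0 above. After quantile normalization the count was 15 and the median -0.11. It was 50 of 78 (64.1%, beside 19.3% of all genes) when A10 replicate 3 was left out. By limma 0 were called, and 2 had an unadjusted p under 0.05. The mean log2(FPKM + 1) of the list was 8.25, 8.32 and 8.48 in A10 and 8.15, 7.96 and 8.14 in A50, without overlap, and 8.36, 8.56 and 8.29 in A0. Rpl41, the most abundant member, had 1133.63, 1241.51 and 1615.92 FPKM in A10 and 1141.87, 1103.85 and 1195.15 FPKM in A50. The 2 largest differences were in Rpl26, with 310.99, 51.16 and 404.84 FPKM in A10 and 23.29, 19.83 and 337.13 FPKM in A50, and in Rps2, with 7, 6.33 and 75.32 FPKM in A10 and 6.43, 6.68 and 7.88 FPKM in A50. Both genes spread widely within a group. Rps2 was also high in A0 replicate 2, B0 replicate 1 and BA50 replicate 1, at 91.61, 89.04 and 91.69 FPKM. Ribosomal protein genes have processed copies through the genome that can share reads, so single members are uncertain.

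The nuclear genes of the respiratory chain, another set of even abundance, lay at a median of -0.04, with 17 of 73 above 0 and 56 below. All A50 values were below all A10 values in 5 of them (6.85%, beside 3.85% of all genes), in 2 after quantile normalization and in 1 after rescaling to a common sum. Leaving out A10 replicate 3 gave 17 of 73 (23.3%, beside 19.3% of all genes) all below and 6 (8.22%, beside 21.7%) all above. The list of 26 names of mitochondrially encoded proteins had 0 genes in the table and was not analysed here. Proteasome and ubiquitin genes had a median of -0.01 over 33 tested, which was -0.08 without A10 replicate 3. Without that replicate 13 of 33 (39.4%, beside 19.3% of all genes) were all below and 5 (15.2%, beside 21.7%) all above. The median of this list was above 0 without A10 replicate 1, A10 replicate 2 or A50 replicate 1, at 0.0064, 0.04 and 0.0081. Genes of splicing and RNA processing had a median of -0.02 over 29 tested, which was -0.08 without A10 replicate 3 and 0.02 without A10 replicate 2. Leaving out A10 replicate 3 gave 8 of 29 (27.6%, beside 19.3% of all genes) all below. Srsf3, a splicing factor gene, had 33.26, 48.40 and 46.34 FPKM in A10 and 64.92, 61.41 and 30.72 FPKM in A50.

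DNA replication and mitosis genes mostly had higher values in A50. Of 38 tested, 31 had a log2 difference above 0 and 7 below, with a median of 0.19. All A50 values were above all A10 values in 11 (28.9%, beside 5.41% of all genes) and below in 0. The count was 9 after quantile normalization, 5 after centring on the median and 15 after rescaling to a common sum, and in each case 0 were below. The 11 were Kif11, Top2a, Mcm7, Ccnb1, Rrm1, Cenpe, Cdc20, Ccne1, Mcm5, Plk1 and Mcm6. When A10 replicate 3 was left out, 17 of 38 (44.7%, beside 21.7% of all genes) were all above. By limma 0 were called, and 4 had an unadjusted p under 0.05. Mcm6, a subunit of the replicative helicase, had 12.92, 13.17 and 9.56 FPKM in A10 and 15.89, 16.02 and 13.81 FPKM in A50, and its A0 samples, at 15.18, 19.13 and 16.04 FPKM, were in the range of A50 or above it. Plk1, a mitotic kinase gene named after its values were seen, had 23.76, 30.59 and 34.68 FPKM in A10 and 36.57, 40.94 and 35.06 FPKM in A50, with A0 at 27.62, 21.42 and 24.83 FPKM. Cdc6, which loads the helicase, differed by 0.38 ± 0.13, with an overlap of 1 sample in each group. Pcna, the sliding clamp and the most abundant of the list, lay the other way at -0.14 ± 0.18.

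Spermatogonial genes had a median of 0.15 over 16 tested, with 10 above 0 and 6 below. Of these, 2 (12.5%, beside 5.41% of all genes) were all above and 1 (6.25%, beside 3.85%) all below. Sohlh2, a transcription factor gene of differentiating spermatogonia, had 5.57, 6.74 and 5.14 FPKM in A10 and 7.12, 9.75 and 7.71 FPKM in A50, without overlap. Stra8, which germ cells switch on before meiosis, had 19.46, 26.72 and 14.16 FPKM in A10 and 22.91, 35.41 and 25.66 FPKM in A50, with overlap. Dazl, an RNA-binding protein gene of germ cells that is not on this list, had 74.69, 73.73 and 40.87 FPKM in A10 and 69.00, 78.38 and 78.20 FPKM in A50. Tex101, the most abundant of the list, differed by 0.16 ± 0.13. The median of the list was 0.03 without A10 replicate 3.

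Spermatocyte genes had a median close to that of all genes. Of 29 tested, 21 were above 0 and 8 below, with a median of 0.07 and 0 without overlap. With A10 replicate 3 left out there were 10 of 29 (34.5%, beside 21.7% of all genes) all above and 2 (6.9%, beside 19.3%) all below, with a median of 0.05. Sycp3 had 137.18, 116.09 and 115.60 FPKM in A10 and 133.24, 128.03 and 130.03 FPKM in A50. Stk31, a germ cell kinase gene, is not on this list, and the study names it as a marker of spermatogonia. It had 16.74, 17.65 and 17.60 FPKM in A10 and 19.09, 18.99 and 15.47 FPKM in A50. Piwil2, a gene of the piRNA pathway, differed by 0.27 ± 0.17. Mael, of the same pathway and the most abundant of the list, had 415.01, 433.78 and 709.72 FPKM in A10 and 564.81, 524.96 and 499.18 FPKM in A50.

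Late spermatocyte and spermatid genes depended on A10 replicate 3. With all 6 samples the median was 0.11 over 20 late spermatocyte genes, 0.02 over 26 round spermatid genes and -0.09 over 32 elongating spermatid genes. Non-overlapping members numbered 2 (10.0%, beside 5.41% of all genes), 0 and 0, with both of the 2 higher in A50. Without A10 replicate 1 these medians were -0.0081, -0.14 and -0.35. Without A10 replicate 3 they were 0.29, 0.37 and 0.21, and all A50 values were above both A10 values in 17 of 20 (85.0%), 21 of 26 (80.8%) and 8 of 32 (25%), beside 21.7% of all genes. The mean log2(FPKM + 1) of the round spermatid genes was 4.98, 5.13 and 5.94 in A10 and 5.47, 5.35 and 5.37 in A50. Ldhc, the germ cell lactate dehydrogenase gene, had 1012.43, 1075.75 and 1827.77 FPKM in A10 and 1401.76, 1280.81 and 1339.38 FPKM in A50. Acrbp, an acrosomal protein gene, had 129.51, 140.35 and 247.05 FPKM in A10 and 182.43, 180.99 and 193.27 FPKM in A50, and Tekt1, a tubulin-binding gene of the sperm tail, 100.73, 94.30 and 152.46 FPKM in A10 and 144.87, 143.80 and 147.49 FPKM in A50. In Ldhc, Acrbp and Tekt1 the 3 A50 samples lay between A10 replicate 3 and the other A10 samples. Ccna1, the cyclin gene of late meiosis, had 36.00, 46.22 and 54.61 FPKM in A10 and 56.77, 67.01 and 57.70 FPKM in A50, without overlap. Tdrd6, a chromatoid body gene, differed by 0.28 ± 0.26 and Tssk6, a spermatid kinase gene, by -0.30 ± 0.34.

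The genes that repackage sperm DNA did not separate the groups. Prm1 had 719.62, 1489.60 and 1375.83 FPKM in A10 and 1014.98, 1182.65 and 936.38 FPKM in A50. Prm2 had 710.88, 1465.36 and 1454.99 FPKM in A10 and 1139.92, 1435.95 and 1028.71 FPKM in A50. Tnp1 and Tnp2, the transition protein genes, differed by -0.21 ± 0.33 and -0.13 ± 0.31, and Odf1, of the outer dense fibres of the tail, by -0.12 ± 0.32. In Prm1, Prm2, Tnp1 and Tnp2 every A50 value lay inside the range of A10. The 22 genes that the study names as testis cell markers or as important for spermatogenesis had a median of 0.04. Of these, 13 were above 0, 9 below and 0 without overlap, and the median was -0.02 without A50 replicate 2. Without A10 replicate 3, 2 of the 22 (9.09%, beside 21.7% of all genes) were all above. Whether any of them was picked on these libraries is not stated in the sources used here.

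**Figure D5:**
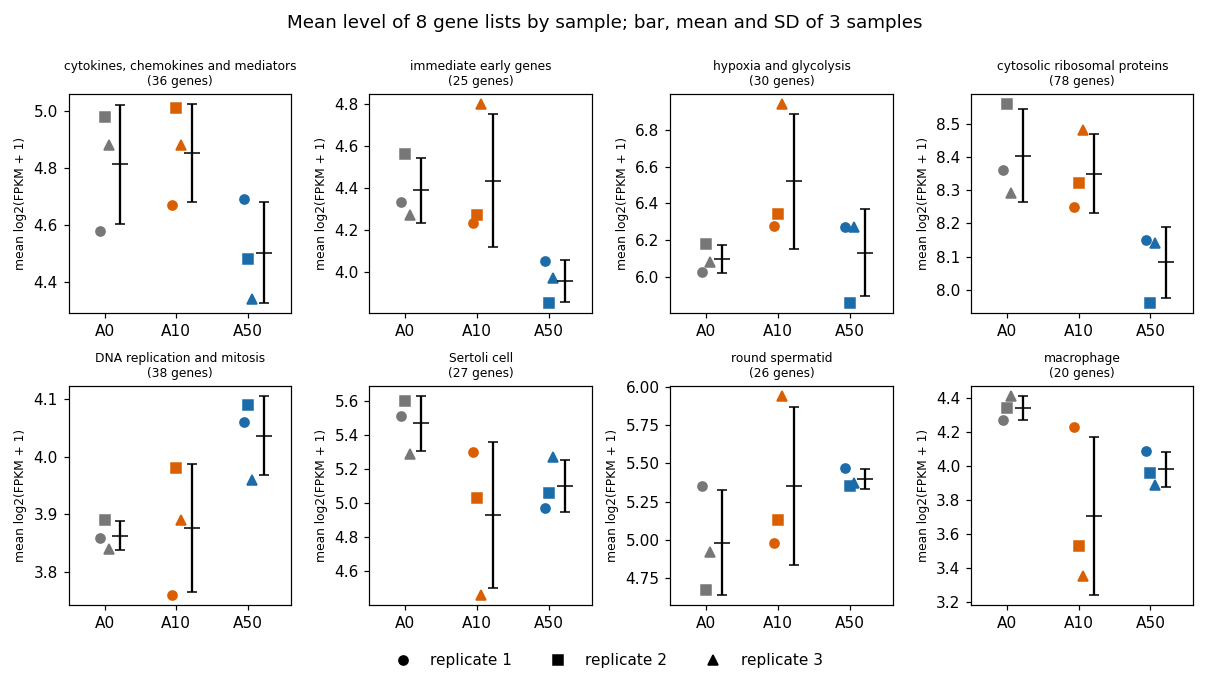
Mean log2(FPKM + 1) of 8 gene lists in the A0, A10 and A50 samples, 1 symbol per replicate number, with mean and SD (n = 3); the axes do not start at 0. A10 replicate 3 is the extreme A10 sample for immediate early, hypoxia, ribosomal protein, Sertoli cell and round spermatid genes. For macrophage genes the A10 replicates lie at 4.23, 3.53 and 3.35, with replicate 1 apart.

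Sertoli cell and barrier genes had medians above 0 that came close to 0 without A10 replicate 3. Of 27 Sertoli cell genes tested, 20 were above 0 and 7 below with a median of 0.13, and 3 (11.1%, beside 5.41% of all genes) had all A50 values above A10, Mro, Krt18 and Inha. The count above was 5 after quantile normalization or median-centring. Leaving out A10 replicate 3 gave a median of -0.02, 3 (11.1%, beside 21.7% of all genes) all above and 2 (7.41%, beside 19.3%) all below. Inha, the inhibin alpha subunit gene, had 95.13, 79.73 and 70.71 FPKM in A10 and 120.40, 131.25 and 130.15 FPKM in A50. Its A0 samples had 134.32, 154.86 and 126.34 FPKM, so A10 was below both other groups, and the log2 difference between A50 and A10 was 0.64 ± 0.27. Tsx, a Sertoli and germ cell gene named after its values were seen, lay the other way, with 21.27, 21.50 and 17.28 FPKM in A10 and 12.03, 12.19 and 16.66 FPKM in A50. Sox9, the Sertoli cell transcription factor gene, had 14.31, 12.28 and 4.71 FPKM in A10 and 12.85, 14.48 and 14.73 FPKM in A50, and Clu 2312.27, 2074.95 and 882.15 FPKM in A10 and 2042.71, 2736.01 and 2810.40 FPKM in A50. Of 22 junction genes of the blood-testis barrier, 18 were above 0 and 4 below with a median of 0.21, which was 0.03 without A10 replicate 3. Of these, 2 (9.09%, beside 5.41% of all genes) were all above, and 4 (18.2%, beside 21.7%) when A10 replicate 3 was left out. Cldn11, which seals the barrier, had 307.14, 239.91 and 106.19 FPKM in A10 and 262.41, 293.66 and 316.68 FPKM in A50. Jam2 and Cgn, an adhesion and a tight junction gene, had 16.28 and 5.20 FPKM in A10 replicate 3 and at least 70.69 and 23.36 FPKM in the other 5 samples.

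Leydig cell and stromal genes had medians below 0 and 0 members without overlap. The median was -0.16 over 19 Leydig cell genes, with 6 above 0 and 13 below, and -0.14 over 20 genes of fibroblasts and stroma. The stromal median ran from -0.37 without A50 replicate 1 to 0.07 without A50 replicate 3, so 1 library turned its sign. With A10 replicate 3 left out, 3 of 19 Leydig cell genes (15.8%) and 2 of 20 stromal genes (10.0%) were all below, beside 19.3% of all genes. Star, which carries cholesterol into mitochondria, had 235.54, 177.85 and 170.10 FPKM in A10 and 141.37, 220.78 and 238.47 FPKM in A50. Insl3 had 545.97, 325.70 and 441.76 FPKM in A10 and 358.92, 290.92 and 552.02 FPKM in A50, and Cyp17a1, an enzyme gene of androgen synthesis, differed by -0.56 ± 0.27. Enzyme genes of steroid and cholesterol synthesis lay at a median of -0.07 over 22, which was 0.03 without A50 replicate 1, among them Idi1 at -0.41 ± 0.32. Dcn, a stromal proteoglycan gene, had 526.73, 441.60 and 229.41 FPKM in A10 and 431.61, 230.53 and 169.03 FPKM in A50.

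Of 14 basement membrane genes 13 were below 0 and 1 above, with a median of -0.14 and 2 (14.3%, beside 3.85% of all genes) whose A50 values were all below A10, or 3 of 14 (21.4%, beside 19.3%) when A10 replicate 3 was left out. Col4a1, a collagen gene, differed by -0.13 ± 0.25 and Lama1, a laminin gene and the 1 above 0, by 0.50 ± 0.34. Peritubular myoid genes had a median of -0.11 over 13, which was 0.08 without A10 replicate 3 and 0.02 without A50 replicate 1, and Tagln, an actin-binding gene of smooth muscle, had 134.19, 139.64 and 325.80 FPKM in A10 and 175.40, 101.64 and 103.42 FPKM in A50. Endothelial genes had a median of -0.01 over 16, and 2 (12.5%, beside 3.85% of all genes) had all A50 values below A10. Leaving out A10 replicate 3 gave 6 of 16 (37.5%, beside 19.3%) all below and a median of -0.12. The median was above 0 without A10 replicate 1, A10 replicate 2 or A50 replicate 1, at 0.01, 0.06 and 0.0023. One of the 2 was Cdh5, the endothelial cadherin gene, with 21.02, 20.30 and 26.25 FPKM in A10 and 18.29, 14.69 and 15.94 FPKM in A50. Of the lists of other cells, 4 erythrocyte, 7 adipocyte, 10 simple epithelium and epididymis, 2 skeletal muscle and 6 replication-dependent histone genes were tested, with medians of 0.04, -0.06, 0.09, -0.11 and -0.19. Leaving out 1 library turned the sign of each of these medians except that of skeletal muscle. Krt18, an epithelial keratin gene that Sertoli cells can express, had 2.59, 4.04 and 3.81 FPKM in A10 and 5.22, 4.83 and 4.90 FPKM in A50.

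The genes with the largest differences toward higher values in A50 were mostly low in A10 replicate 3. Tmem134, a membrane protein gene on chromosome 19, had 7.91, 6.17 and 2.16 FPKM in A10 and 10.22, 12.72 and 11.44 FPKM in A50. Its A0 samples had 11.86, 15.95 and 13.23 FPKM, so A10 was below both other groups in every sample, and the log2 difference between A50 and A10 was 1.08 ± 0.32. Drp2, a dystrophin-related gene, had 9.28, 8.18 and 1.83 FPKM in A10 and 10.82, 10.98 and 10.65 FPKM in A50. Slc25a18, a mitochondrial glutamate carrier gene, had 5.22, 1.39 and 1.47 FPKM in A10 and 6.95, 5.47 and 5.53 FPKM in A50.

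Other genes of that end were low in A10 replicate 3 and in A0 replicate 2 alike. Tcte3, a dynein light chain gene of the testis, had 358.46, 362.64 and 118.27 FPKM in A10, 515.35, 513.38 and 546.17 FPKM in A50, and 35.13 FPKM in A0 replicate 2 beside 243.94 and 251.91 FPKM in the other A0 samples. Cd55b, a complement regulator gene, had 55.18, 62.80 and 15.62 FPKM in A10, 82.41, 72.63 and 76.41 FPKM in A50, and 6.32 FPKM in A0 replicate 2. Rd3, a regulator of guanylate cyclase, had 4.15, 4.60 and 0.78 FPKM in A10, 6.42, 6.66 and 6.58 FPKM in A50, and 0.67 FPKM in A0 replicate 2. Gm20827 and Gm21292 on the Y chromosome and Gm13306 on chromosome 4 were low in these samples too, with 0.61, 0.97 and 2.15 FPKM in A10 replicate 3. After busulfan, B0 replicate 1 and BA50 replicate 1 were low in the same way. They had 0.79 and 0.72 FPKM of Rd3 and 0.45 and 1.20 FPKM of Gm20827. For Gm21292 the values were 0.84 and 0.75 FPKM, and for Gm13306 1.02 and 1.11 FPKM. Gm20827, Gm21292 and Gm13306 belong to multicopy families whose members can share reads, so these values are uncertain.

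The same step of AOS was also measured after busulfan, in BA50 and BA10, which share no sample with A50 and A10. The difference between the 2 dose steps was tested as an interaction in limma, and 0 of 14971 genes (0%) had an adjusted p under 0.05, with the smallest at 0.999. Of the 810 genes with all A50 values above A10, 75 (9.26%) also had all BA50 values above BA10 and 10 (1.23%) had them below, where BA50 lay above in 4.69% and below in 5.19% of all genes. Of the 577 genes below, 30 (5.20%) were also below after busulfan and 8 (1.39%) above. These 75 and 30 genes are 10.7% of the 702 genes above and 3.86% of the 777 genes below after busulfan. Across the 14971 genes Pearson's r between the 2 differences was -0.06 and Spearman's rho 0.12, and genes are not independent replicates.

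Cytokine genes lay lower at the higher dose after busulfan too, with smaller values. The median of the 36 was -0.20, and 4 had all BA50 values below all BA10 values, where 5.19% of all genes did. Cxcl2 had 18.13, 8.88 and 22.40 FPKM in BA10 and 11.83, 6.15 and 11.11 FPKM in BA50, with overlap, and a log2 difference of -0.66 ± 0.36. Ptgs2 had 46.51, 43.95 and 120.46 FPKM in BA10 and 30.44, 28.24 and 49.88 FPKM in BA50, and Csf3 10.51, 3.86 and 11.95 FPKM in BA10 and 4.31, 2.20 and 6.21 FPKM in BA50. In these 3 genes each group of 3 overlapped the other. Immediate early, hypoxia and ribosomal protein genes had medians of -0.04, 0.01 and 0.07 after busulfan, and DNA replication and mitosis genes 0.12. Marco lay the other way, with 94.12, 21.22 and 55.11 FPKM in BA10 and 7.57, 4.09 and 25.68 FPKM in BA50, and its interaction of 3.72 ± 0.94 (SE) had an adjusted p of 0.999 in limma.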

How the data were processed

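The authors sequenced poly(A) RNA of cultured testes on an Illumina HiSeq instrument and deposited FPKM values to 2 decimals for each gene in each sample. Their processing notes name HISAT, Bowtie2, RSEM and GRCm38.p5, while the supplementary methods name SOAPaligner and RPKM. The depth is unknown: in 2032 low genes 18.9% of 5846 ratios between samples were within 0.1 of a whole number, where 20% would be by chance, so reads were not recovered.

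Groups came from the sample labels. A limma 3.58.1 fit in R 4.3.3 (lmFit, then eBayes with trend, 12 residual and 2.59 prior degrees of freedom) was made on log2(FPKM + 1) of all 18 samples with 1 coefficient per group, restricted to genes that reached 1 FPKM in 3 or more of the 6 samples compared. The fit was tested on simulated data. A fold on this scale understates the change of low genes. That the 3 samples of a group came from separate animals is stated only as repeats, so p-values measure the spread between these samples. The p-values were adjusted by Benjamini-Hochberg over all 14971 genes. Lists are described by counts and medians. Symbols were found for 20656 of 20811 gene numbers, and 1846 gene models had none. Named genes were, in each direction, the 10 with the largest log2 difference among called genes without overlap, filled up to 10 with uncalled genes that have a symbol, no overlap and a mean of at least 5 FPKM in the higher group; in each list the 2 largest differences among members with a mean of at least 1 FPKM and the most abundant member; and 14 genes fixed by name (Prm1, Prm2, Tnp1, Tnp2, Odf1, Stk31, Dazl, Sycp3, Star, Insl3, Sox9, Tlr4, Nos2 and Ptgs2). The comparison, the lists and these genes were chosen with earlier results of these data known. Alternatives were the replicate block, fewer samples in the fit, a pseudocount of 0.1, other filters and scalings, eBayes without trend or robust, sample weights, other thresholds and each replicate left out. Weights estimated gene by gene and list counts without A10 replicate 3 were added after seeing the data. Python 3.11.15 with pandas 2.3.3 was used for tables, SciPy 1.17.1 for permutation tests and matplotlib 3.10.9 for figures.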

Additional observations from a re-analysis of the deposited data

Results flagged for a closer look

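In 2 of the named genes the dose step from 10 to 50 μg/mL AOS went in opposite directions in every sample without and with busulfan. Gnl1 differed by -1.80 on the log2 scale between A50 and A10 and by 0.76 between BA50 and BA10, and Ppp1r10 by -1.16 and 0.62. The interaction of the 2 steps was -2.56 ± 0.83 (SE) for Gnl1 and -1.79 ± 0.70 for Ppp1r10, and its limma adjusted p was 0.999 in both. Both genes lie in the chromosome 17 stretch around Ier3 and varied within other groups as well. Among all 14971 genes tested, 10 and 8 showed opposite steps without overlap in the 2 possible directions.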

How the results depend on the processing

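No gene was called lower in A50 by limma in any fit except with 1 weight per sample, which called 1865 lower and 2032 higher and whose estimation did not converge. The count called higher was 1 with only the 6 samples, 2 without a filter, 2 with weights estimated gene by gene, 257 at an unadjusted p under 0.05 (145 lower) and 63 at a ratio of means of at least 2 (135 lower). Leaving out each replicate gave 0 to 1 genes higher, the 1 without A10 replicate 1, and 0 to 0 lower. Genes with all A50 values above A10 numbered 532 after median-centring. The difference between the dose steps called 0 genes in each setting. The replicate block called 0 genes in 18 and in 6 samples. Same-numbered samples of A10 and A50 deviated from their group means with correlations of -0.19, 0.27 and -0.092. The A10 means include the outlying replicate 3, so these values cannot settle whether same-numbered samples share a repeat.

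Of 104 named genes, 83 kept the sign of their difference in all settings. With sample weights the sign turned for Insl3 (0.11), Rps2 (0.0742), Prm2 (-0.17), Eno1 (0.00687), Col4a1 (0.11) and Cxcl10 (0.32), and with weights estimated gene by gene for Odf1 (0.0869), Col4a1 (0.0279) and Cdkn1a (0.0566). With median-centring it turned for Star (-0.0154) and Stk31 (-0.00169), and with quantile normalization for Prm1 (0.0942) and Tnp2 (0.0284). Over the replicates left out, the difference ran from -0.25 to 0.00309 for Pcna, -0.41 to 0.0555 for Insl3, -0.12 to 0.25 for Star, -0.42 to 0.0922 for Spp1, -1.63 to 0.0581 for Rps2, -0.46 to 0.0633 for Prm1, -0.30 to 0.23 for Prm2, -0.60 to 0.0115 for Tnp1, -0.47 to 0.0653 for Tnp2, -0.44 to 0.21 for Odf1, -0.0658 to 0.36 for Ldhc, -0.40 to 0.0785 for Tlr4, -0.0143 to 0.13 for Stk31, -0.052 to 0.80 for Lama1, -0.27 to 0.00719 for Col4a1, -1.06 to 0.19 for Cdkn1a, -0.0059 to 0.46 for Acrbp, -0.75 to 0.11 for Tssk6 and -0.0689 to 0.32 for Mael. The cause was not tested. Without A10 replicate 3 the list medians that moved by more than the spread between replicates were those of spermatogonia (0.03), endothelial cells (-0.12), heat shock (-0.13), p53 targets (-0.11) and the proteasome (-0.08). That spread includes A10 replicate 3, so it is wide for lists in which this sample stands apart. The round spermatid median went from 0.02 to 0.37 (spread 0.366) and the elongating spermatid median from -0.09 to 0.21 (spread 0.382). Leaving out 1 library turned the sign of the median of 19 of the 34 lists with genes tested. The depth is unknown and 3 samples per group limit the precision.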
